A study of Bubalus bubalis with 12 samples.

Results

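The genes described here are those of the nuclear factor κB (NF-κB) transcription factor and of the suppressors of cytokine signalling (SOCS) in the corpus luteum (CL) of buffalo cows, the progesterone-secreting gland left in the ovary after ovulation. The members were all probe sets annotated with exactly 1 of 10 symbols: NFKB1, NFKB2, RELA, RELB, NFKBIA, IKBKB, SOCS1, SOCS2, SOCS3 and CISH. Of the 24016 probe sets tested, 9 carried 1 of these symbols and covered 8 of the 10 genes, among 9155 genes named on the array. SOCS3 had 2 probe sets, and RELB and SOCS1 were not analysed here because no probe set carried their symbol.

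Cows with normal estrous cycles were given 500 µg of cloprostenol, an analogue of prostaglandin F2α (PGF2α), by intramuscular injection on day 11 of the cycle, and the CL was collected 3 h (n = 2), 6 h (n = 3) or 18 h (n = 3) later. Control CL (0 h, n = 4) came from untreated cows on day 11. Each of the 12 CL was hybridised to its own Affymetrix GeneChip Bovine Genome Array, whose probes were designed on cattle sequence. Values are log2 levels made by robust multichip average (RMA), so a difference of 1 is a doubling, and levels are compared only within a probe set. The injected cows had no vehicle-injected counterpart at 3, 6 or 18 h, so time after injection and the treatment cannot be told apart.

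NF-κB is a dimer of Rel proteins that IκB proteins such as the product of NFKBIA hold in the cytoplasm. The IκB kinase, which contains the product of IKBKB, marks IκB for destruction, and the freed dimer moves to the nucleus and switches on genes of inflammation and cell survival, its own inhibitor NFKBIA among them. Cytokine receptors act through Janus kinases (JAK) and STAT factors, which induce SOCS3, SOCS2 and CISH, and the proteins these genes encode then switch the receptors off. In the regressing CL, cytokines and immune cells are known to take part in the loss of progesterone secretion and of tissue. The activity of NF-κB and of STAT factors is set largely by protein location and phosphorylation, which mRNA levels do not show.

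The tissue carried its defining markers, with control levels of 14.71 to 14.91 for STAR, 14.15 to 14.36 for CYP11A1 and 14.76 to 14.92 for HSD3B1, genes of progesterone synthesis. Several arrays bear on what follows. Control replicates 1 and 4 were nearly alike over all probe sets (r = 0.997), and the labels call both of them biological replicates. The correlation of other control pairs is not given here, so how unusual that value is cannot be read from it. Control replicate 3 was the highest of the 4 controls for 9 of 9 member probe sets, against 23.3% of all probe sets, and 3 h replicate 3 stood above 3 h replicate 1 for 7 of 9, against 47.3% of all. The means of 9 measured monocyte and macrophage marker genes of 10 listed read 9.10 in control replicate 3 and 7.65 to 7.90 in the other controls. The 3 h arrays were close on that list, at 8.41 and 8.58, but on 4 measured neutrophil marker genes of 6 listed, 3 h replicate 1 read 8.65 and 3 h replicate 3 read 10.49. Lists of other cells differed on these arrays too. Control replicate 3 read 12.82 on the fibroblast list, against 11.82 to 12.61 in the other controls. On the steroidogenic list it read 13.01, against 13.34 to 13.41. On the mural and smooth muscle list control replicate 2 was the highest control (10.02), and the 3 h arrays read 9.19 (replicate 1) and 10.12 (replicate 3). In whole tissue, fewer cells of a type and less RNA per cell cannot be told apart.

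**Figure D1:**
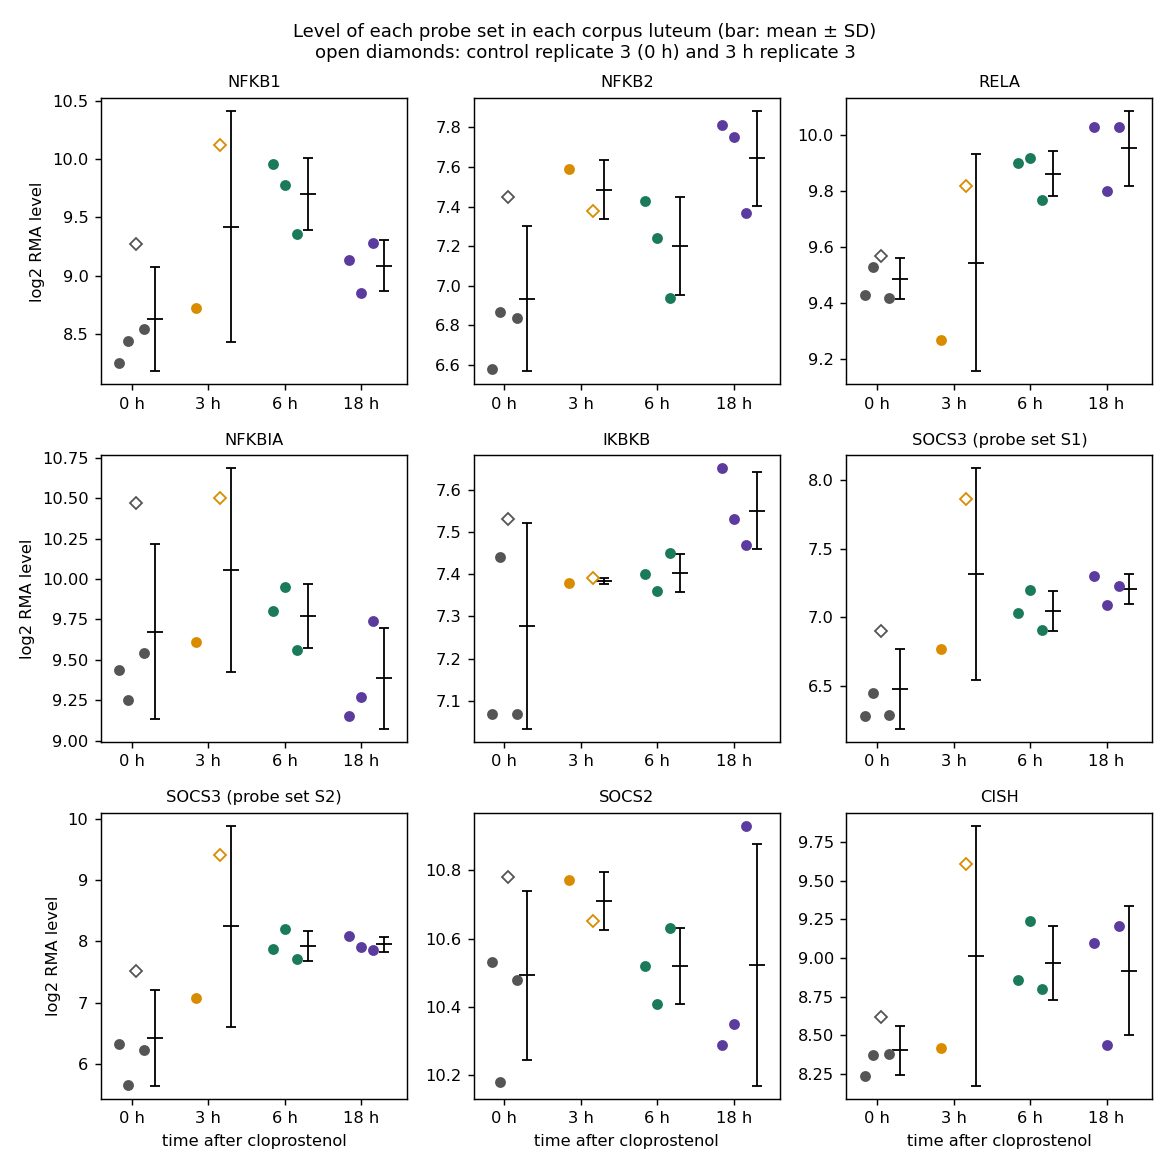
Log2 RMA level (y axis) of the 9 member probe sets in each CL by time after cloprostenol (x axis), 1 point per cow, with the mean ± SD as a bar; open diamonds mark control replicate 3 and 3 h replicate 3. In every panel the open diamond at 0 h is the highest control, and for NFKB1, NFKBIA, CISH and both SOCS3 probe sets the 3 h points are 0.89 or more apart.

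The arrays allow a pair of questions: which member mRNAs differed from the control CL at each time, and whether they differed between the treated times. The levels of each gene are given first, DNA-binding subunits before regulators. RELA, the subunit with the main activating domain, read 9.43, 9.53, 9.57 and 9.42 in the controls, 9.27 and 9.82 at 3 h, 9.90, 9.92 and 9.77 at 6 h, and 10.03, 9.80 and 10.03 at 18 h. All 3 CL at 6 h and all 3 at 18 h lay above all 4 controls, while the 3 h pair lay on either side of them. RELA was up regulated at 18 h, to a mean of 9.95, against 9.49 at 0 h, by 0.46 ± 0.13 (log2, SE), or 1.38-fold (limma, adjusted p = 0.0340). At 6 h it averaged 9.87, a difference of 0.38 ± 0.13 that missed the threshold of 0.05 (adjusted p = 0.0787).

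NFKB2 encodes p100, the precursor of the p52 subunit of the non-canonical pathway. Its levels were 6.58, 6.87, 7.45 and 6.84 in the controls, 7.59 and 7.38 at 3 h, 7.43, 7.24 and 6.94 at 6 h, and 7.81, 7.75 and 7.37 at 18 h. The 18 h CL averaged 7.64, against 6.93 at 0 h, a rise of 0.71 ± 0.20 or 1.64-fold (adjusted p = 0.0376). The ranges overlapped through control replicate 3 alone, since 18 h replicate 3, at 7.37, was below it and above the other 3 controls. Over the 12 fits that each left out 1 array, the adjusted p ran from 0.00468 (without control replicate 3, a rise of 0.88 ± 0.16) to 0.147, and 6 of the 12 passed. The fits without 3 h replicate 1 and without 3 h replicate 3 gave the same values, since a lone 3 h array adds nothing to the error. They are 1 result, although each is among the passes. At 6 h the mean of NFKB2 was 7.21 and the difference of 0.27 did not pass (adjusted p = 0.448).

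NFKB1, which encodes p105, the precursor of p50, had its highest mean at 6 h. The controls read 8.25, 8.44, 9.27 and 8.54, the 3 h CL 8.72 and 10.12, the 6 h CL 9.96, 9.78 and 9.36, and the 18 h CL 9.13, 8.85 and 9.28. Every 6 h value was above every control and above every 18 h value, although 6 h replicate 3 exceeded control replicate 3 by little and 3 h replicate 3 was the highest array of all. The 6 h difference from 0 h, 1.07 ± 0.32 or 2.10-fold, fell just short of the threshold (adjusted p = 0.0503). With each array left out in turn it passed in 3 of 12 fits (adjusted p 0.0126 to 0.175), one of them without control replicate 3 (1.29 ± 0.30, adjusted p = 0.0164). The other passes came without either 3 h array, and those fits are again 1 result. At 18 h NFKB1 averaged 9.09, against 8.63 at 0 h (0.46 ± 0.32, adjusted p = 0.412), and 18 h against 6 h the difference was -0.61 ± 0.34 (adjusted p = 0.557). Means of the 3 subunits thus ran in different orders over time: 6 h was the highest for NFKB1 and 18 h for RELA and NFKB2, and no difference between 6 h and 18 h passed for any of them.

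NFKBIA, which encodes the inhibitor IκBα and is itself a classical NF-κB target, showed no comparable pattern. It read 9.44, 9.25, 10.47 and 9.54 in the controls, 9.61 and 10.50 at 3 h, 9.80, 9.95 and 9.56 at 6 h, and 9.15, 9.27 and 9.74 at 18 h. All 3 treated times overlapped the controls, whose highest value exceeded every 6 h and 18 h value. The differences from 0 h were 0.38 (95% confidence interval -0.34 to 1.11) at 3 h, 0.09 (-0.54 to 0.73) at 6 h and -0.29 (-0.93 to 0.35) at 18 h, so changes of up to about 1 log2 unit at 3 h lie inside the interval. IKBKB, the catalytic subunit IKKβ, lay between 7.07 and 7.65 on all 12 arrays. Its difference at 18 h was 0.27 ± 0.12 (95% confidence interval 0.01 to 0.54, adjusted p = 0.181), with overlap of the 7.47 to 7.65 at 18 h and the 7.07 to 7.53 at 0 h.

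SOCS3, the feedback inhibitor induced by the interleukin-6 family through STAT3, had on one of its probe sets the largest mean differences among the members. Its probe sets are called S1 and S2 here, after the ending of their names. On probe set S2 it read 6.32, 5.65, 7.51 and 6.22 in the controls, 7.08 and 9.41 at 3 h, 7.87, 8.20 and 7.72 at 6 h, and 8.09, 7.91 and 7.86 at 18 h. On probe set S1 it read 6.28, 6.45, 6.90 and 6.29 in the controls, 6.77 and 7.86 at 3 h, 7.03, 7.20 and 6.91 at 6 h, and 7.30, 7.09 and 7.23 at 18 h. Both probe sets placed every 6 h and 18 h CL above every control, by a margin over control replicate 3 that was small at 6 h, and both placed 3 h replicate 3 highest and 3 h replicate 1 below control replicate 3.

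For probe set S2 the differences from 0 h were 1.50 ± 0.50 or 2.84-fold at 6 h (adjusted p = 0.0757) and 1.53 ± 0.50 or 2.88-fold at 18 h (adjusted p = 0.0681). For probe set S1 they were 0.57 ± 0.23 at 6 h (adjusted p = 0.138) and 0.73 ± 0.23 at 18 h (adjusted p = 0.0603). None passed with all 12 arrays. With each array left out in turn, probe set S2 passed in 3 of 12 fits at 6 h (adjusted p 0.0148 to 0.221) and in 3 of 12 at 18 h (0.0122 to 0.189). Those 3 left out a 3 h array or control replicate 3, without which S2 differed by 1.87 ± 0.45 at 6 h (adjusted p = 0.0201) and by 1.89 ± 0.45 at 18 h (adjusted p = 0.0176). The pair at 3 h stood 2.33 apart on this probe set, and that spread enters the error of every comparison. Leaving out either 3 h array removes that spread and gave the same values at 6 h and 18 h, so those fits are not separate evidence.

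CISH and SOCS2 encode SOCS family proteins best known from STAT5 signalling downstream of growth hormone and prolactin. CISH read 8.24, 8.37, 8.62 and 8.38 in the controls, 8.42 and 9.61 at 3 h, 8.86, 9.24 and 8.80 at 6 h, and 9.10, 8.44 and 9.21 at 18 h. All 3 CL at 6 h were above the controls, yet at 18 h replicate 2 fell among them. The differences were 0.56 ± 0.26 at 6 h (adjusted p = 0.212) and 0.51 ± 0.26 at 18 h (adjusted p = 0.252). SOCS2 lay between 10.18 and 10.93 on the 12 arrays with no order by time. Its differences at 6 h and 18 h were both 0.03, with a 95% confidence interval of -0.34 to 0.40, which leaves out a doubling in either direction.

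**Figure D2:**
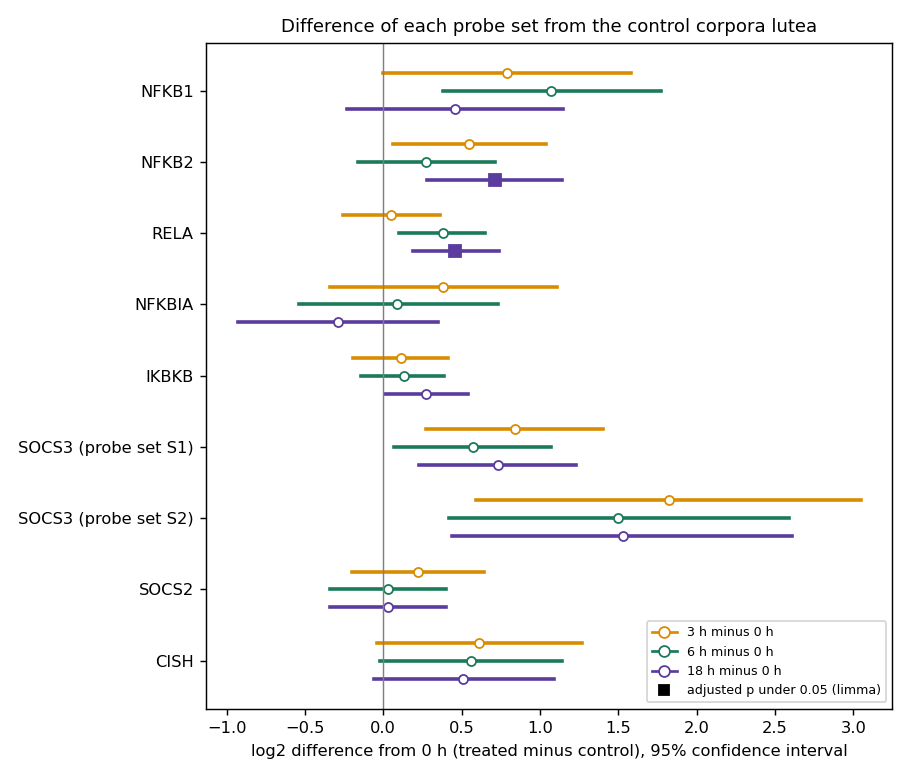
Log2 difference of each member probe set from the 4 control CL (x axis) at 3 h, 6 h and 18 h, treated minus control, with the 95% confidence interval of the limma fit; filled squares passed adjusted p under 0.05. The 2 filled squares are RELA (0.46) and NFKB2 (0.71) at 18 h, and the intervals of SOCS3 probe set S2 are the widest at each time.

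Counted together, 2 of the 9 member probe sets were called at 18 h against 0 h, both higher, where 12.3% of all probe sets were called (5.71% higher), and 5 were below an unadjusted p of 0.05, where 26.1% of all were. None was called at 6 h, where 11.3% of all were (5.26% higher), and 4 were below an unadjusted 0.05, where 25.2% of all were. None was called at 3 h, where 0.0208% of all were, and again 4 were below an unadjusted 0.05, where 9.89% of all were. With arrays that did not overlap, 5 members were higher than all controls at 6 h (11.1% of all probe sets), 3 at 18 h (11.6%) and 0 at 3 h (5.71%); 0 were lower than all controls at 3 h, 6 h or 18 h, against 8.73%, 14.7% and 13.8% of all probe sets. The differences from 0 h were above 0 for 9 of 9 members at 3 h, 9 of 9 at 6 h and 8 of 9 at 18 h, against 47.1%, 41.3% and 46.7% of all probe sets. Median differences of the members were 0.55, 0.38 and 0.46 at 3 h, 6 h and 18 h, against -0.01, -0.04 and -0.02 over all probe sets. The 3 comparisons use the same 4 controls, so they are not separate evidence.

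Between treated times no member was called: 0 at 6 h against 3 h, where 0.237% of all probe sets were, 0 at 18 h against 3 h (2.84%) and 0 at 18 h against 6 h (0.45%). Below an unadjusted p of 0.05 lay 0 members at 6 h against 3 h (12.6% of all), 1 at 18 h against 3 h (16.1%) and 0 at 18 h against 6 h (11.3%), the 1 being RELA (0.41 ± 0.15, adjusted p = 0.195). With 2 arrays at 3 h, a member's difference there from 0 h had a standard error of 0.14 to 0.56, and few probe sets of any kind passed at that time.

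The calls turned on single arrays. RELA at 18 h passed with 7 of the 12 arrays left out in turn (adjusted p 0.00686 to 0.126), and NFKB2 at 18 h with 6 of 12 (0.00468 to 0.147). Both were lost without control replicate 1, control replicate 2, control replicate 4 or 18 h replicate 1, and also when control replicates 1 and 4 were averaged into 1 sample (adjusted p = 0.0882 for RELA and 0.0970 for NFKB2). In a fit of only the 0 h and 18 h arrays, NFKB2 also missed (adjusted p = 0.0521), while RELA (0.0168) and both SOCS3 probe sets (0.0182 and 0.0266) passed. In the other direction, a fit without the 3 h arrays, chosen after seeing the data, called 4 members at 6 h, where it called 14.9% of all probe sets: NFKB1 (adjusted p = 0.0126), RELA (0.0202) and both SOCS3 probe sets (0.0148 and 0.0276). At 18 h that fit also called 4, RELA (0.00686), NFKB2 (0.0363) and both SOCS3 probe sets (0.00834 and 0.0122), where it called 16.1% of all probe sets. When control replicate 3 was left out as well, CISH joined the 4 at 6 h (0.63 ± 0.20, adjusted p = 0.0468) and NFKB1 the 4 at 18 h (0.67 ± 0.17, adjusted p = 0.0185), with 19.6% and 20% of all probe sets called. The differences of RELA, NFKB1, NFKB2, CISH and SOCS3 at 6 h and 18 h stayed above 0 in every one of these fits. For 6 h and 18 h against 0 h, the fit without the 3 h arrays gave the same values as leaving out either 3 h array. A lone array at 3 h adds nothing to the error, so these fits are 1 result. The passes of RELA and NFKB2 counted above include that result under each 3 h array.

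**Figure D3:**
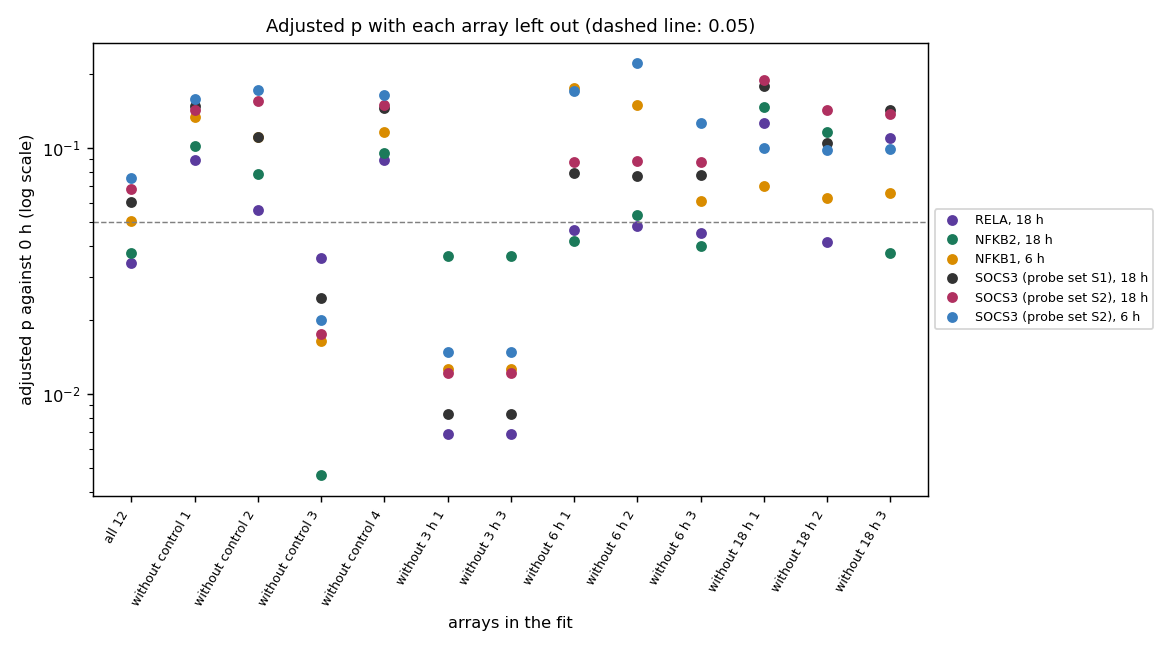
Adjusted p against 0 h (y axis, log scale) for RELA, NFKB2, NFKB1 and SOCS3 at the times given in the legend, with all 12 arrays and with each array left out (x axis). The dashed line is 0.05. The positions without 3 h replicate 1 and without 3 h replicate 3 show the same values. All 6 points lie below the line without control replicate 3 or without either 3 h array, and all 6 lie above it without control replicate 1, 2 or 4 or without 18 h replicate 1.

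Markers of immune cells, like those of some other cell types, differed on some of the same arrays. The mean level of the 9 monocyte and macrophage genes ranged over 7.65 to 9.10 at 0 h, 8.41 to 8.58 at 3 h, 8.35 to 8.62 at 6 h and 8.73 to 9.64 at 18 h, and 1 gene at 6 h (CD14) and 4 at 18 h (CD14, CD68, CD86 and TYROBP) were called higher against 0 h. CD14, the co-receptor for lipopolysaccharide, was higher by 2.64 ± 0.45 at 18 h (adjusted p = 0.00352), and CD68, a macrophage lysosomal protein, by 1.60 ± 0.21 (adjusted p = 0.00107). None of 4 neutrophil genes was called at 6 h or 18 h, and of 11 lymphocyte genes 0 were higher at either time, with 2 lower at 6 h and 1 at 18 h. Among 10 steroidogenic genes 2 were lower at 6 h and 6 at 18 h. The part of these shifts in the RELA, NFKB2, NFKB1 and SOCS3 values was not tested. The 3′ minus 5′ difference of the GAPDH control probe sets, a sign of RNA quality, stayed between 0.03 and 0.25 on every array, whereas that of actin ran from 0.91 to 2.07 in the controls and from 1.68 to 2.37 at 18 h.

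**Figure D4:**
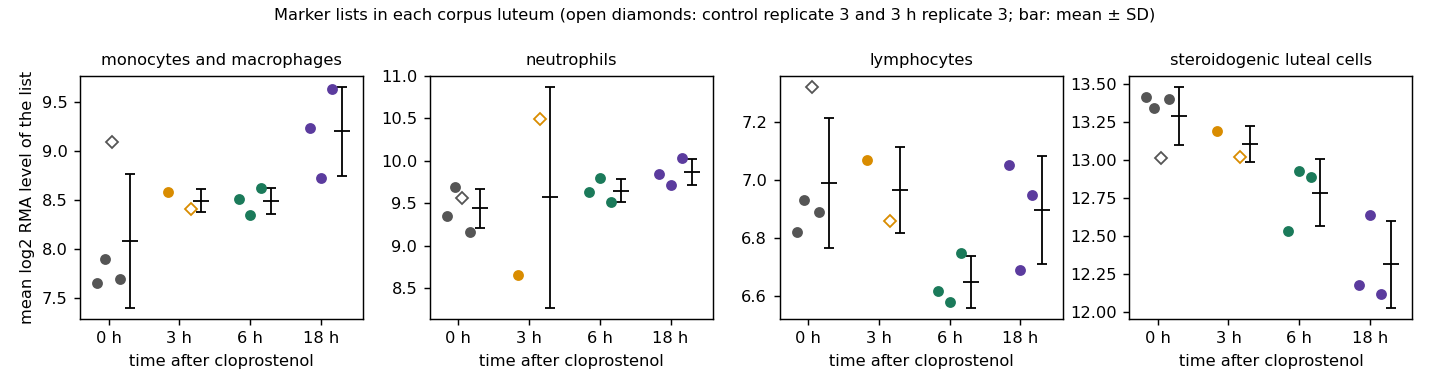
Mean log2 RMA level (y axis) of 4 marker lists in each CL by time (x axis), 1 point per cow, with the mean ± SD as a bar; open diamonds mark control replicate 3 and 3 h replicate 3. Control replicate 3 reads 9.10 on the monocyte and macrophage list, within the 8.73 to 9.64 of the 18 h CL, and the 3 h pair lies at 8.65 and 10.49 on the neutrophil list.

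Other genes of the pathway were taken from a list of 44 that act upstream of NF-κB or bind it, of which 35 were measured, by 56 probe sets. At 6 h 2 of these probe sets were called higher and 3 lower, and at 18 h 6 higher and 1 lower; at 3 h 0 were called. Background shares were 5.26% higher and 6.08% lower at 6 h, and 5.71% and 6.63% at 18 h. The median differences were 0.13 at both times, against -0.04 and -0.02 over all probe sets. Receptors were among those that rose: TNFRSF1B, the second receptor for tumour necrosis factor, read 8.95, 8.60 and 8.66 at 18 h, against 7.17, 7.52, 7.90 and 7.48 at 0 h. That rise of 1.22 ± 0.15 (adjusted p = 0.000736) followed one of 0.54 ± 0.15 at 6 h (adjusted p = 0.0416), with no overlap of the groups at either time.

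CD40, a receptor on antigen-presenting and other cells that feeds the NFKB2 branch, rose at 18 h by 1.29 ± 0.31 (adjusted p = 0.0197) on 1 of its 2 probe sets. The other differed by 0.02 ± 0.46. TLR4, the receptor for lipopolysaccharide, read 9.40, 8.88 and 9.65 at 18 h, against 7.60, 7.94, 9.19 and 7.66 at 0 h, a rise of 1.22 ± 0.34 (adjusted p = 0.0371) with control replicate 3 inside the 18 h range. TAB2, an adaptor of the kinase that activates IκB kinase, rose at 18 h on both of its probe sets, by 0.47 ± 0.12 and 0.75 ± 0.19 (adjusted p = 0.0251 and 0.0245). TNIP1, which binds the inhibitor A20 and restrains NF-κB, was higher at 18 h on 3 of 3 probe sets and called on 1 (0.67 ± 0.19, adjusted p = 0.0387). BCL10, a scaffold of antigen receptor signalling, was higher at 6 h on 4 of 4 and called on 1 (0.38 ± 0.09, adjusted p = 0.0253).

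NKIRAS1, a small Ras-like protein that binds IκB and slows its breakdown, was down regulated by 0.53 ± 0.09 at 6 h and by 0.54 ± 0.09 at 18 h (adjusted p = 0.00539 and 0.00322). Its relative NKIRAS2 was lower at 6 h on both of its 2 probe sets and called on 1 (-0.51 ± 0.12, adjusted p = 0.0235). NKIRAS1 read 6.17, 6.32 and 6.30 at 6 h and 6.19, 6.34 and 6.24 at 18 h, against 6.85, 6.74, 6.66 and 6.91 at 0 h. These values do not overlap, and the 3 h CL, at 6.34 and 6.31, lay below the controls as well. IRAK4, the kinase next to the Toll-like receptors, was lower at 6 h on both of its 2 probe sets and called on 1 (-0.74 ± 0.21, adjusted p = 0.0469). The called probe set read 9.39, 8.54 and 8.57 at 6 h, against 9.62, 9.33, 9.72 and 9.60 at 0 h. The 6 h ranges of IRAK4 overlapped the controls through 6 h replicate 1, and its 18 h values of 9.50, 10.21 and 9.80 lay among the controls or above them. Among genes of IκB proteins that did not pass, NFKBIB, which encodes IκBβ, had 1 of 2 probe sets above all controls at 18 h (0.41 ± 0.13, adjusted p = 0.0569). BCL3, a nuclear IκB protein that partners p50 and p52, had both of its probe sets above all controls at 18 h (0.52 ± 0.20 and 0.44 ± 0.14, adjusted p = 0.123 and 0.0619). The other NFKBIB probe set and all those of the IκB genes NFKBIE, NFKBID and NFKBIZ overlapped the controls at 18 h. Differences there were 0.12 to 0.15 for NFKBIE, 0.13 for NFKBID, and -0.32 and -0.04 for NFKBIZ. COMMD1, another gene of the list, had both of its probe sets below all controls at 6 h. These differences did not pass either (-0.27 ± 0.09 and -0.34 ± 0.12, adjusted p = 0.0879 and 0.101).

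Of 22 listed target genes of NF-κB and STAT factors, 19 were measured, by 24 probe sets. At 6 h 4 were higher (CXCL8, MYC, MCL1 and CCL20) and 1 lower (CCND1), and at 18 h 1 was higher (IER3) and 1 lower (CCND1), against the same background of 5.26% and 6.08% at 6 h and 5.71% and 6.63% at 18 h. The median difference over the 24 probe sets was 0.14 at 6 h and 0.15 at 18 h, against -0.04 and -0.02 over all probe sets. With 1 probe set per gene, that of highest mean, it was 0.70 and 0.23, against -0.05 and -0.02 over all 9155 genes. CXCL8, the neutrophil chemoattractant interleukin-8, read 10.27, 9.88 and 8.83 at 6 h, against 7.63 to 8.36 in the 4 CL at 0 h, a rise of 1.72 ± 0.45 (adjusted p = 0.0326). CCL20, a chemokine for dendritic cells and lymphocytes, rose by 0.81 ± 0.23 (adjusted p = 0.0438), with overlap: 7.61, 7.08 and 7.82 at 6 h, against 6.73, 6.69, 7.10 and 6.25 at 0 h.

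MYC, a transcription factor of growth and cell death, was higher at 6 h by 1.26 ± 0.36 (adjusted p = 0.0440), and MCL1, a survival protein of the BCL2 family, by 0.95 ± 0.25 (adjusted p = 0.0340). At 18 h IER3, an early-response gene linked to cell survival, read 12.36, 11.30 and 11.51, against 10.34, 10.08, 10.31 and 10.37 at 0 h (1.44 ± 0.31, adjusted p = 0.0112). CCND1, cyclin D1 of the cell cycle, fell by 0.90 ± 0.16 at 6 h and by 1.08 ± 0.16 at 18 h (adjusted p = 0.00674 and 0.00183), opposite to the other called targets. PIM1, a kinase gene induced by STAT factors, had the largest difference of the list at 6 h, 2.38 ± 0.77, with no overlap of the groups, and did not pass (adjusted p = 0.0694). PTGS2, the prostaglandin synthase cyclooxygenase-2, also did not overlap and did not pass at 6 h on 1 of its 3 probe sets (1.19 ± 0.40, adjusted p = 0.0802). In the other direction, GADD45B lay below all controls at 18 h and did not pass (-0.92 ± 0.28, adjusted p = 0.0516). The same held for 1 of 3 probe sets of CEBPD at 18 h (-1.04 ± 0.34, adjusted p = 0.0689). CCL2 was close to PIM1 at 6 h on both of its probe sets (2.37 ± 0.78 and 2.17 ± 0.69, adjusted p = 0.0771 and 0.0661). At 18 h they differed by 2.03 ± 0.78 and 1.99 ± 0.69 (adjusted p = 0.122 and 0.0854). Both overlapped the controls at both times.

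**Figure D5:**
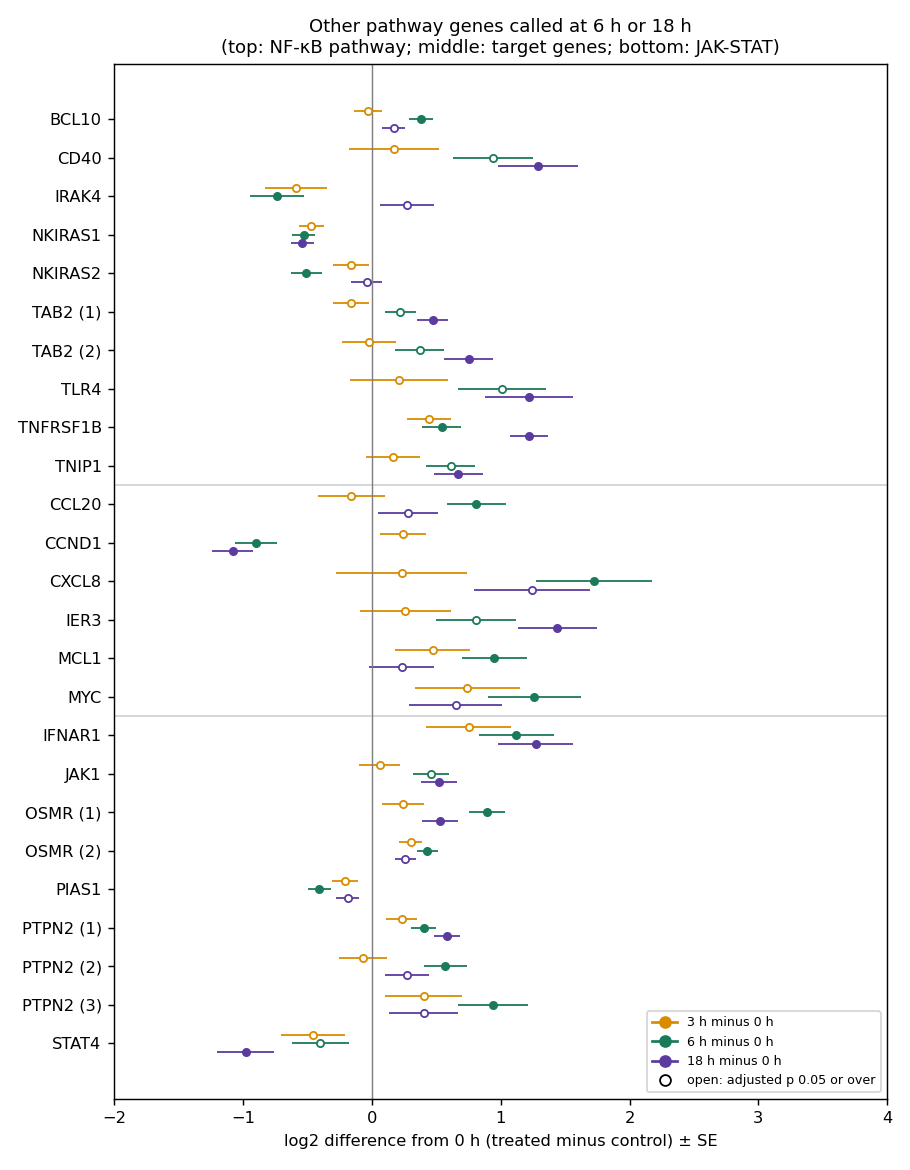
Log2 difference from 0 h ± SE (x axis) at 3 h, 6 h and 18 h for the probe sets of the other pathway genes called at 6 h or 18 h; filled points passed adjusted p under 0.05, and a number in parentheses counts probe sets of 1 gene. IER3 (1.44), CD40 (1.29) and IFNAR1 (1.27) lie farthest right at 18 h, and CCND1 (-1.08) and STAT4 (-0.98) farthest left.

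In the JAK-STAT group 20 of 34 listed genes were measured, by 40 probe sets, with 6 called higher and 1 lower at 6 h, and 4 higher and 1 lower at 18 h, against 5.26% and 6.08% of all at 6 h and 5.71% and 6.63% at 18 h. Of the 6, 3 were PTPN2 and 2 OSMR, and with 1 probe set per gene 2 of 20 genes were higher and 1 lower at 6 h, and 3 higher and 1 lower at 18 h. The median differences over the 40 probe sets were 0.02 at 6 h and 0.01 at 18 h, against -0.04 and -0.02 over all probe sets. With 1 probe set per gene they were -0.06 and 0.12, against -0.05 and -0.02 over all genes. OSMR, the receptor chain for oncostatin M of the interleukin-6 family, was higher on 4 of 4 probe sets at both 6 h and 18 h. It was called at 6 h on 2, by 0.89 ± 0.14 and 0.43 ± 0.08 (adjusted p = 0.00402 and 0.00891), and at 18 h on 1, by 0.53 ± 0.14 (adjusted p = 0.0312). IFNAR1, a chain of the type I interferon receptor, read 7.67, 7.15 and 7.49 at 6 h and 7.97, 7.62 and 7.19 at 18 h, against 6.36, 5.89, 6.99 and 6.04 at 0 h. It rose by 1.12 ± 0.29 at 6 h (adjusted p = 0.0300) and by 1.27 ± 0.29 at 18 h (adjusted p = 0.0145). JAK1, a kinase of both of these receptor complexes, rose by 0.52 ± 0.14 at 18 h (adjusted p = 0.0379).

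PTPN2, a phosphatase that removes the activating phosphate from JAK1 and STAT proteins and so is a further brake, was called higher at 6 h on 3 of 3 probe sets, by 0.40 to 0.94. At 18 h 3 of 3 were higher and 1 was called (0.58 ± 0.10, adjusted p = 0.00455). PIAS1, a SUMO ligase, fell by 0.41 ± 0.09 at 6 h (adjusted p = 0.0164). STAT4, the factor that carries interleukin-12 signals in lymphocytes, was lower at 18 h on both of its 2 probe sets and called on 1 (-0.98 ± 0.22, adjusted p = 0.0145). STAT3 itself, the usual inducer of SOCS3, was not called in any comparison. Its brighter probe set differed from 0 h by 0.38 ± 0.19 at 3 h, -0.12 ± 0.17 at 6 h and -0.09 ± 0.17 at 18 h (adjusted p = 0.539, 0.732 and 0.802), with every 6 h and 18 h value below both 3 h values, and the other by -0.05, 0.02 and -0.21. Of the 31 called differences of the 3 lists, 8 passed with every array left out in turn: NKIRAS1 and CCND1 at 6 h and 18 h, TNFRSF1B and 1 probe set of PTPN2 at 18 h, and both OSMR probe sets at 6 h. With control replicates 1 and 4 averaged, 14 of the 31 passed.

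Over the 12 arrays, the genes whose levels ran most like those of 3 members were sought among 1334 probe sets with an SD of at least 0.5 and a single symbol; these correlations share the arrays and the time course and are given as a description. For SOCS3 (probe set S2) they were NFIL3 (r = 0.97), JUNB (r = 0.93) and ATF3 (r = 0.93), transcription factors of the bZIP family. For NFKB1 they were IFRD1 (r = 0.96) and 2 genes of the target list, PIM1 (r = 0.96) and MYC (r = 0.95). For NFKB2 they were F5 (r = 0.87), which encodes coagulation factor V, the chemokine CXCL5 (r = 0.86) and TNFRSF1B (r = 0.85).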

How the data were processed

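The authors deposited RMA values on a log2 scale, per the labels; RMA subtracts background, brings the arrays to a common distribution and gives 1 value for each probe set. Which software release and chip file they used, and which arrays were normalized as 1 batch, is not given in the sources used here. No genome build was named either, so no coordinates are printed. RMA can understate small differences at low signal. Of 24128 probe sets, 112 controls were left out. Symbols came from the platform annotation: 13292 probe sets had 1 symbol, 86 several and 10638 none. All 8 member symbols stood in the buffalo RefSeq gene table. Array medians were 7.09 to 7.17. The number of arrays and the spread between them limit the precision.

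A mean per time was estimated from all 12 arrays with limma 3.58.1 (lmFit, contrasts.fit, eBayes; R 4.3.3), two-sided, with Benjamini-Hochberg adjustment over 24016 probe sets and a call at adjusted p under 0.05. The fit was tested on simulated data. The members and lists were chosen with earlier results of these data known, and the other pathway genes named are list genes called at 6 h or 18 h or not overlapping the controls. Exceptions were STAT3, CCL2, NFKBIE, NFKBID and NFKBIZ, named after their values were seen. The pathway and marker lists were written by hand from general knowledge. Alternatives were: each array left out, control replicates 1 and 4 averaged, a replicate block, quantile normalization again, median centring, the dimmest 40% of probe sets left out, a trended robust fit, only the 2 times compared, gene means and, added after seeing the data, fits without the 3 h arrays and without those and control replicate 3. Samples with the same replicate number did not deviate together.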

Additional observations from a re-analysis of the deposited data

Results flagged for a closer look

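No member met a rule for a closer look. Among the other pathway genes called against 0 h, differences between treated times passed the limma test for TNFRSF1B at 18 h against 3 h (0.79, adjusted p = 0.0425), for 1 probe set of TAB2 at 18 h against 3 h (0.63, adjusted p = 0.0408), and for CCND1 at 6 h against 3 h (-1.14, adjusted p = 0.0440) and at 18 h against 3 h (-1.33, adjusted p = 0.00560). All values of 1 time lay above the control mean and all of the other below it, with a difference between the times that did not pass, for that TAB2 probe set at 6 h against 3 h (0.38) and for CCL20 at 6 h against 3 h (0.97) and at 18 h against 3 h (0.44). The 3 h side rests on 2 CL in each case.

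CEBPD, a transcription factor of the acute phase response and a STAT3 target, was the gene of the target list with the largest fall at 18 h against 3 h, and was singled out after its values were seen. At 18 h against 3 h all 3 of its probe sets were lower, and 2 were called, by 2.06 ± 0.41 and 1.35 ± 0.31 (adjusted p = 0.0235 and 0.0436). The other differed by -0.69 ± 0.23 (adjusted p = 0.16). Against 0 h CEBPD was not called at any time. Its 3 probe sets had differences above 0 at 3 h and below 0 at 6 h and 18 h. At 18 h 1 of them lay below all controls (-1.04 ± 0.34, adjusted p = 0.0689).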

How the results depend on the processing

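The count of member probe sets called at 6 h against 0 h, 0 with all arrays, became 1 (NFKB1) after quantile normalization again (11.1% of all probe sets called), without the dimmest 40% (19.1%) and with gene means (15.1%). It became 4 with only the 2 times compared (12.7%), 4 without the 3 h arrays (14.9%) and 5 without those and control replicate 3 (19.6%). The count of 2 at 18 h became 0 with control replicates 1 and 4 averaged (7.73%), 0 with the replicate block (6.16%), 3 with only the 2 times compared (14%), 3 without the dimmest 40% (20.1%; SOCS3 probe set S1 joined), 4 without the 3 h arrays (16.1%) and 5 without those and control replicate 3 (20%). Leaving out 1 array not from 3 h gave 0 to 4 calls at 18 h (6.42% to 15.2% of all). It gave 0 to 2 at 6 h (4.86% to 14.6%) and 0 at 3 h (0% to 0.25%). It also gave 0 at 6 h against 3 h (0.0666% to 0.633%) and at 18 h against 3 h (0.92% to 3.76%). Without either 3 h array, the values at 6 h and 18 h against 0 h were those of the fit without both. Such a fit leaves 1 array at 3 h, its spread assumed like that of the others, so only differences are given. Without 3 h replicate 1, the differences at 3 h were 1.39 and 2.98 for SOCS3 probe sets S1 and S2 and 1.21 for CISH. Without 3 h replicate 3, RELA differed from 3 h by 0.59 at 6 h and by 0.68 at 18 h.

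Directions that turned were all among uncalled differences. With 1 array left out, NFKBIA ranged from -0.06 (without 3 h replicate 3) to 0.83 at 3 h and from -0.05 (without control replicate 2) to 0.36 at 6 h. RELA ranged from -0.22 (without 3 h replicate 3) to 0.33 at 3 h. SOCS2 ranged from -0.07 (without control replicate 2; -0.02 without 6 h replicate 3) to 0.13 at 6 h, and from -0.17 (without 18 h replicate 3; -0.07 without control replicate 2) to 0.15 at 18 h. After quantile normalization again it was -0.01 at 6 h. The cause was not tested. Of the 31 called differences of other pathway genes, 9 passed with the replicate block. Replicate numbers share no stated origin: deviations of same-numbered samples had correlations of -0.26 to 0.19, and those of other pairs -0.29 to 0.26. The array holds no read depth, and RMA values near the low end give no sign of whether a probe set was above background.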

Other observations

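The remaining marker lists moved as follows. Of 9 measured endothelial genes 3 were called higher and 1 lower at 6 h, and 4 higher and 1 lower at 18 h, with PECAM1 up by 1.64 ± 0.20 at 6 h and EMCN down at both times. Of 7 mural and smooth muscle genes 3 were higher at 6 h and 3 at 18 h (TAGLN, DES and CNN1), and of 6 fibroblast genes 0 were higher at 6 h and 3 at 18 h (DCN, LUM and PDGFRA). Of 4 erythroid genes 0 were called at either time on the probe set of highest mean. Other probe sets of HBB were called higher, 1 at 6 h (0.98 ± 0.24, adjusted p = 0.0232) and 2 at 18 h (0.98 ± 0.19 and 1.28 ± 0.24, adjusted p = 0.00602 and 0.00536). Counts by gene use its probe set of highest mean.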
